A study of Homo sapiens with 4 samples.

Results

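Polycomb repressive complexes silence developmental genes through histone marks. Polycomb repressive complex 1 (PRC1) ubiquitinates lysine 119 of histone H2A (H2AK119ub) through its RING ligases, and Polycomb repressive complex 2 (PRC2) methylates lysine 27 of histone H3 (H3K27me3) through EZH1 or EZH2. Canonical PRC1 reads H3K27me3 with CBX proteins, whereas variant PRC1 carries RYBP or YAF2 instead and deposits most H2AK119ub. In synovial sarcoma, the SSX part of the fusion oncoprotein SS18::SSX binds nucleosomes that carry H2AK119ub and brings a chromatin remodeling complex to sites marked by PRC1. WDR5 is an adaptor protein of the KMT2 histone H3 lysine 4 methyltransferases and is also found in one form of variant PRC1.

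The genes described here encode the subunits of both complexes. They were taken from a list of named subunits and number 35 of the 20046 protein-coding genes of the annotation: 23 PRC1 genes (12 of core or canonical PRC1 and 11 of variant PRC1) and 12 PRC2 genes (6 core and 6 accessory). The rule that chose them uses no measured value, although earlier results of these data were known when it was written. Together they had 9 annotated start sites at the median (range, 1 to 22), with medians of 7 for the PRC1 genes and 12 for the PRC2 genes against 5 for all protein-coding genes.

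SS18::SSX and WDR5 were mapped by CUT&RUN, in which an antibody tethers a nuclease that cuts out the bound DNA, in HSSY II cells, a human synovial sarcoma line that expresses SS18::SSX1. The cells received DMSO, the solvent, or 2.5 μM MS67, a small molecule that directs WDR5 to degradation, for 4 days, and each reaction held 1000000 of these cells with 50000 mouse NIH-3T3 cells, wild type or expressing H2B-GFP by the labels, as a spike-in (5%). Each of the 4 combinations of target and treatment had 1 peak list from 1 library, all from 1 cell line. No difference between treatments or targets therefore has a replicate check, and no p-value between groups is given. A gene was counted as having a promoter peak when the centre of a peak lay between 1000 bp upstream and 100 bp downstream of any of its start sites (hg38), and a wider count took centres within 2 kb.

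The WDR5 lists held 35605 peaks with DMSO and 14123 with MS67, and the SS18::SSX lists held 15141 and 1175. Genome-wide background, recovered from the lists, was 0.368 fragments per base with DMSO and 0.168 with MS67 for WDR5 (a ratio of 0.458), and 0.541 and 0.737 for SS18::SSX (a ratio of 1.36). The shallower WDR5 library with MS67 could therefore call fewer peaks for the same binding, whereas the SS18::SSX library with MS67 was the deepest of the 4. An absent peak means that none was called at this depth, not that the protein was absent. Peak strength is given below as −log10 q, the authors' caller's false discovery rate on a log scale, with the number of fragments stacked at the summit.

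The 8 member promoters with an SS18::SSX peak in DMSO and the 2 strongest WDR5 promoters of the set carry most of the results, so stretches of these peaks that lie outside annotated exons are shown first, from the hg38 genome, read 5′ to 3′ on the strand of the gene. Peaks that exons cover (the SS18::SSX peaks of *SCMH1*, *PCGF1*, and *MTF2*) are not shown, and the WDR5 peak of *MTF2* was left out. Capitals mark 3 letter patterns searched on both strands: CCAAT or its reverse ATTGG (the NFY box), GGGCGG or CCGCCC (the Sp/KLF box), and the palindrome CACGTG (an E-box). In *PCGF1* one ATTGG and one GGGCGG run share bases and so form a single run of capitals. The *PCGF1* stretch does not hold the summit of its WDR5 peak, whereas every other stretch shown holds the summit of its peak.
RNF2, SS18::SSX, chr1:185044505-185044624, plus strand: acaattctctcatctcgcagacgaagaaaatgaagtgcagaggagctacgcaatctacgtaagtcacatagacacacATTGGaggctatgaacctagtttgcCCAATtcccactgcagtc
RNF2, WDR5, chr1:185045146-185045265, plus strand: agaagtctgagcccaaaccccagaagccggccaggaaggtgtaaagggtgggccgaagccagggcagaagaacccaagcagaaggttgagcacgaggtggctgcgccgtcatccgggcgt
PHC3, SS18::SSX, chr3:170181567-170181686, minus strand: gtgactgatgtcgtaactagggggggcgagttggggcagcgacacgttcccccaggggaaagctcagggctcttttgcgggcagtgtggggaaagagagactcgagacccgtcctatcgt
PHC3, WDR5, chr3:170181750-170181845, minus strand: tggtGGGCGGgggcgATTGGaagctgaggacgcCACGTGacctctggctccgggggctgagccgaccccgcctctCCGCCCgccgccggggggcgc
PCGF5, SS18::SSX, chr10:91162500-91162619, plus strand: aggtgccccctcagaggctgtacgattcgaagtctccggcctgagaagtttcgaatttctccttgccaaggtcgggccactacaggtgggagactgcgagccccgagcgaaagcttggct
PCGF5, WDR5, chr10:91162576-91162695, plus strand: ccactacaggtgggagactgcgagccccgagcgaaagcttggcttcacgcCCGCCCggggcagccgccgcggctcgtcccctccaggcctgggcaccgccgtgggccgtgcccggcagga
PCGF1, WDR5, chr2:74507479-74507575, minus strand: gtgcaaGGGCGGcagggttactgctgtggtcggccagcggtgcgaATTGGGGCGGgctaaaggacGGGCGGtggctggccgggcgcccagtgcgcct
PCGF3, SS18::SSX, chr4:705461-705580, plus strand: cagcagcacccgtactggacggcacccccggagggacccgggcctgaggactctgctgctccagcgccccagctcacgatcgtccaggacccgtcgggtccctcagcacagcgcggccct
EZH2, SS18::SSX, chr7:148884504-148884623, minus strand: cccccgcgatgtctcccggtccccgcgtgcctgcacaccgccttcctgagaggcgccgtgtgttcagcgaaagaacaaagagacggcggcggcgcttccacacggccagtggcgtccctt
KDM2B, WDR5, chr12:121536397-121536516, minus strand: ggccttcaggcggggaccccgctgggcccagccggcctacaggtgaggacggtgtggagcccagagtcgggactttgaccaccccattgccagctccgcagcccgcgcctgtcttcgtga
PHF19, WDR5, chr9:120868667-120868786, minus strand: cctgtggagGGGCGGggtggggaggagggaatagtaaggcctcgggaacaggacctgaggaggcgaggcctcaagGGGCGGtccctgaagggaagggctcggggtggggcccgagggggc
These patterns were about as frequent at the members as elsewhere for WDR5. In windows reaching 100 bp to each side of the summit, 9 of 25 WDR5 promoter peaks of the members held the Sp/KLF box (36%), against 37.1% of the 10160 WDR5 promoter peaks of all protein-coding genes, 3 held the NFY box (12% against 15.5%), and 2 held the E-box (8% against 4.89%). For SS18::SSX, 3 of 8 member peaks held the Sp/KLF box (37.5% against 37.9% of 2924) and 3 held the NFY box (37.5% against 20.3%), a difference that rests on 3 peaks. None of the 8 held the E-box, which 4.92% of all such peaks did. Median GC content was 64.2% for the WDR5 peaks of the members and 59.7% for the SS18::SSX peaks, against 63.2% for all promoter peaks of either target. A match of letters is a description of the window and does not show that a factor was bound.

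SS18::SSX occupied promoters of both complexes in DMSO, mostly those of PRC1 genes. Promoter peaks were called at 6 of 23 PRC1 genes (26.1%, 95% Clopper-Pearson interval 10.2 to 48.4, counting error only) and at 2 of 12 PRC2 genes (16.7%, 2.09 to 48.4), where 13.4% of all protein-coding genes had one. The intervals overlap each other and hold the share of all genes, so neither group is set apart by this count. Among the PRC1 genes were the catalytic subunit *RNF2*, the canonical subunits *PHC3* and *SCMH1*, and 3 of the 4 PCGF genes that define variant complexes (*PCGF1*, *PCGF3*, and *PCGF5*). The PRC2 genes were *EZH2*, the methyltransferase, and *MTF2*, a Polycomb-like protein that targets PRC2 to unmethylated CpG islands.

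The strongest SS18::SSX promoter peak of the set lay at *PCGF3* (chr4:705407-705711), with a −log10 q of 7.03, a fold of 6.71 over the local background, and 14 fragments at the summit, centred 189 bp upstream of a start site. The peak of *RNF2*, whose protein is the main H2A ubiquitin ligase, lay far upstream (chr1:185044495-185044641, 958 bp from the start site) and had a −log10 q of 5.93 with 11 fragments. *PHC3*, which encodes a subunit that polymerizes through its SAM domain, had a peak just downstream of a start site (chr3:170181543-170181731, 86 bp) with a −log10 q of 4.47 and 8 fragments. These were narrow peaks near the median strength of promoter peaks of this list: the 8 member peaks had a median −log10 q of 4.01 (range, 1.71 to 7.03) against 3.34 for all 2924, and median summits of 10.5 and 11 fragments.

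Among the weaker peaks, that of *EZH2* (chr7:148884504-148884658) lay 260 bp upstream with a −log10 q of 4.44 and 11 fragments, and that of *PCGF1* (chr2:74507156-74507311) lay 83 bp upstream with 3.59 and 11. *SCMH1* (chr1:41242583-41242740) had a −log10 q of 2.50 with 7 fragments, at a site that is also the promoter of the divergent noncoding gene *SCMH1-DT*. For *PCGF5* the promoter peak (chr10:91162500-91162637) was weak, with a −log10 q of 1.96 and 10 fragments, but a second peak 1157 bp downstream of the start site (chr10:91164048-91164290) reached 5.46 and 15. *MTF2* (chr1:93079318-93079465) had the weakest of all, with a −log10 q of 1.71 and 5 fragments, the smallest summit in that list. Within 2 kb the count rose to 8 PRC1 genes by adding *CBX8* and *RYBP*, and stayed at 2 PRC2 genes, where 21.8% of all protein-coding genes had a peak. At canonical start sites alone, 4 PRC1 genes and 1 PRC2 gene had a promoter peak, where 8.83% of all genes did.

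**Figure D1:**
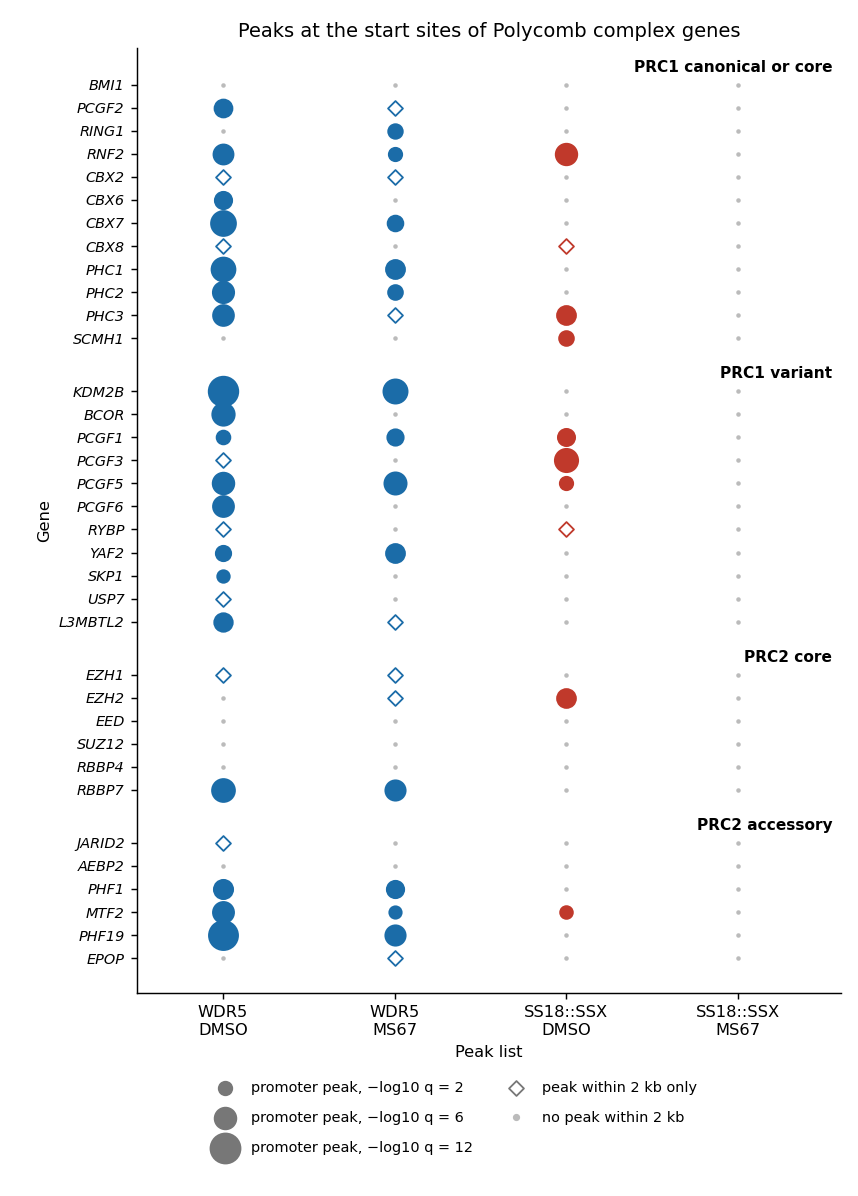
Peaks at each of the 35 Polycomb complex genes (vertical axis, grouped by complex) in each of the 4 peak lists (horizontal axis). Filled circles are promoter peaks, with area rising with the −log10 q of the strongest one, diamonds are genes with a peak only within 2 kb, and grey points are genes with none. SS18::SSX circles stand at 8 genes with DMSO and at none with MS67.

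WDR5 was called at more PRC1 than PRC2 promoters in DMSO. Promoter peaks were found at 15 of 23 PRC1 genes (65.2%, interval 42.7 to 83.6) and at 4 of 12 PRC2 genes (33.3%, 9.92 to 65.1), where 42.9% of all protein-coding genes had one. By role, the counts were 7 of 12 core or canonical PRC1 genes, 8 of 11 variant PRC1 genes, 1 of 6 core PRC2 genes, and 3 of 6 accessory PRC2 genes. The intervals overlap, and with a stricter threshold (−log10 q above 3 and fold above 6) the order turned, with 1 of 23 PRC1 genes (4.35%) and 3 of 12 PRC2 genes (25%) against 11.7% of all. That threshold is the one the study applied when it compared peak sets between assays. When only the canonical start site of each gene was used, 9 of 23 PRC1 and 4 of 12 PRC2 genes had a peak, where 31.2% of all genes did. Most PRC1 calls were thus peaks of modest fold, and some lay only at alternative start sites.

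*KDM2B*, whose protein binds unmethylated CpG islands and recruits the PCGF1 form of variant PRC1, had the strongest and widest WDR5 promoter peak among the members. The peak (chr12:121535873-121537613, 1741 bp) had a −log10 q of 11.7 and 31 fragments and was centred 508 bp upstream of an internal start site, and 2 further promoter peaks had values of 2.95 and 3.54. *CBX7*, a chromodomain reader of H3K27me3, followed (chr22:39152845-39153422, 454 bp upstream), with 8.12 and 17. The peak of *PHC1* (chr12:8914832-8915543) had 7.43 and 17. In the other 12 PRC1 genes with a promoter peak, the strongest one had a −log10 q between 1.65 (*SKP1*, a subunit shared with SCF ubiquitin ligases) and 6.47 (*BCOR*, a corepressor of the PCGF1 form).

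Of the PRC2 genes, *PHF19*, a Polycomb-like accessory subunit, had the strongest WDR5 promoter peak (chr9:120868462-120868870), centred 44 bp upstream of a start site with a −log10 q of 11.2, a fold of 8.07, and 19 fragments. *RBBP7*, a histone-binding subunit that PRC2 shares with other complexes, had a peak 725 bp upstream (chrX:16870846-16871328) with 6.78 and 14. *MTF2* had a peak 255 bp upstream (chr1:93078869-93079091) with 5.65 and 10, and *PHF1* one with 4.63 and 11. All 3 genes of the Polycomb-like family (*PHF1*, *MTF2*, and *PHF19*) were thus among the 4 PRC2 genes with WDR5, and *RBBP7* was the only core gene. Median −log10 q was 4.24 over 19 PRC1 promoter peaks and 5.14 over 6 PRC2 promoter peaks, against 4.88 over all 10160.

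**Figure D2:**
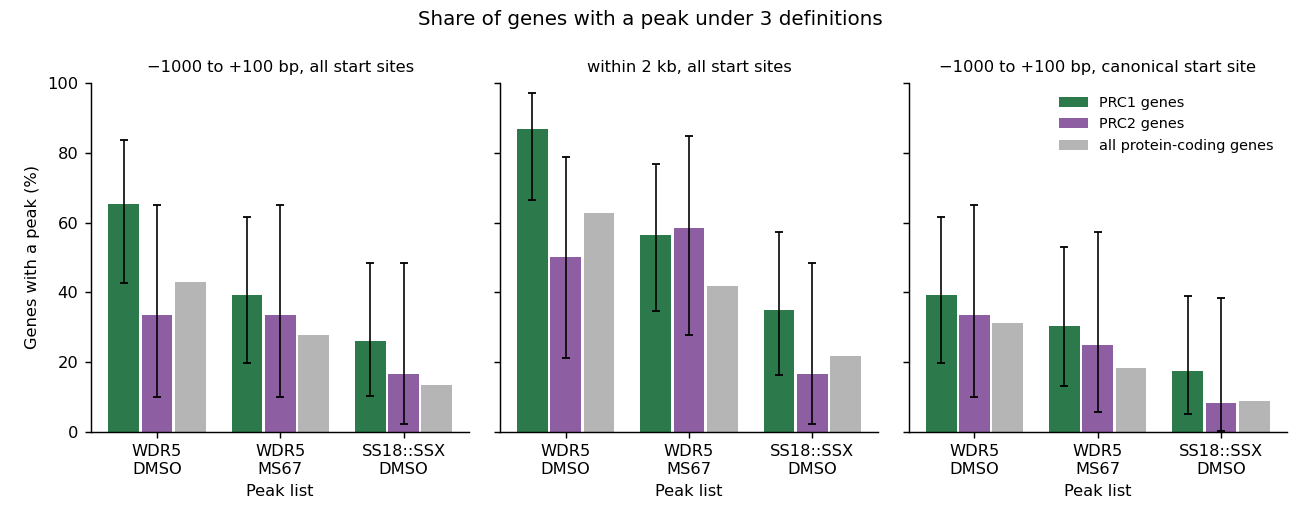
Share of PRC1 genes (23), PRC2 genes (12), and all protein-coding genes (20046) with a peak, in percent, in 3 peak lists under 3 definitions of a gene's peak. Error bars are 95% Clopper-Pearson intervals, and those of PRC1 and PRC2 overlap in every pair. For WDR5 with DMSO the gap between 65.2% and 33.3% in the left panel narrows to 39.1% and 33.3% in the right panel.

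Genes without a WDR5 promoter peak in DMSO numbered 8 in each complex. Of the PRC1 genes, 5 had a WDR5 peak within 2 kb. That of *CBX8* (chr17:79799306-79799492) was centred 1068 bp upstream with a −log10 q of 4.16 and 27 fragments, and that of *RYBP*, a subunit that stimulates ubiquitination by variant PRC1, lay 1526 bp upstream (chr3:72448027-72448267) with 5.01 and 15. The peaks of the other three were downstream: *PCGF3* at 1205 bp (chr4:707068-707227, 5.59 and 12), *USP7* at 605 bp (chr16:8961832-8962181, 5.96 and 16, also at a promoter of *USP7-AS1*), and *CBX2* at 1418 bp (chr17:79779397-79779826, 2.37 and 11). *SCMH1*, *RING1*, and *BMI1* had none within 2 kb. With the wider window 20 of 23 PRC1 genes had WDR5, all 11 variant genes among them, and 6 of 12 PRC2 genes, where 62.7% of all genes had it.

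Among the PRC2 genes, *EZH1* and *JARID2* had strong WDR5 peaks that missed the promoter window. At *EZH1*, which encodes the less active methyltransferase, the peak lay 322 bp downstream of a start site (chr17:42744396-42744990) with a −log10 q of 9.29 and 16 fragments. At *JARID2*, an accessory subunit that binds H2AK119ub, it lay 1428 bp upstream (chr6:15244327-15244954) with 8.13 and 21. *EZH2* and *EPOP* had no WDR5 peak within 2 kb in DMSO. The genes of the reader *EED*, the scaffold *SUZ12*, the histone-binding subunit *RBBP4*, and the accessory subunit *AEBP2* had no peak of either target within 2 kb of any start site in any of the 4 lists, and *BMI1* was the only PRC1 gene of which this was true. Such genes made up 33.3% of the PRC2 and 4.35% of the PRC1 genes. With DMSO alone, 34.8% of all protein-coding genes had neither target within 2 kb, so the PRC2 share was not unusual.

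**Figure D3:**
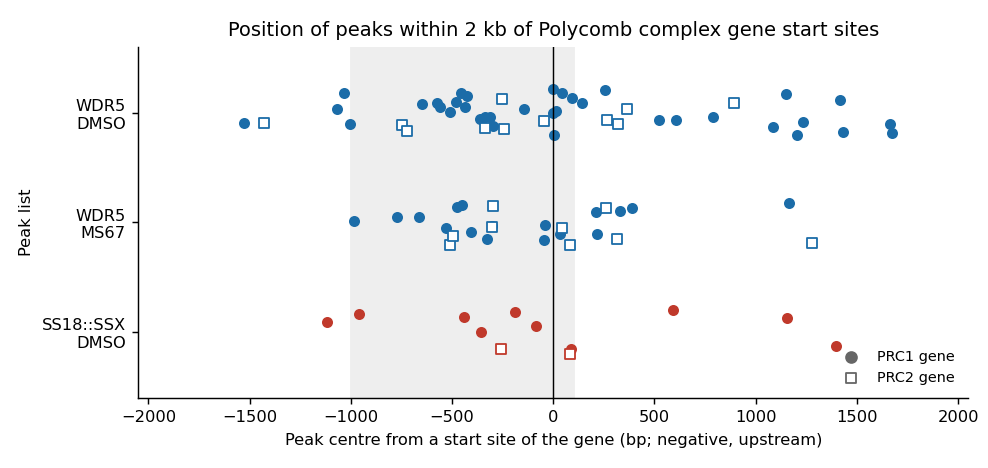
Centres of all peaks within 2 kb of a start site of a Polycomb complex gene, in bp with negative values upstream, for the 3 lists with such peaks. Promoter peaks are measured from the nearest start site whose promoter window holds them, which need not be the nearest of all. Other peaks are measured from the nearest start site. The grey band is the promoter window, from 1000 bp upstream to 100 bp downstream. In the WDR5 list with DMSO 22 of 47 peaks lie upstream.

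Several peaks lay near the edges of the promoter window. Just inside lay the SS18::SSX peak of *RNF2* at 958 bp upstream and a WDR5 peak of *YAF2* at 94 bp downstream. Just outside lay the strongest WDR5 peak within 2 kb of any member start site, at *PCGF5* (chr10:91220393-91221457, 142 bp downstream), with a −log10 q of 12.1 and 19 fragments, a second *PCGF2* peak at 1002 bp upstream with 9.18 and 30, and a second *SKP1* peak at 1034 bp upstream with 3.06 and 9. These 3 genes counted as having WDR5 through other, weaker peaks, and *YAF2* had a second promoter peak, so of these genes the edge bore only on the SS18::SSX call of *RNF2*. The edge also decided calls at other members. Counting any 1 bp of a peak in the promoter added WDR5 at *CBX8* and *EZH1* and SS18::SSX at *RYBP*. As the plot of peak positions shows, 46.8% of the 47 WDR5 peaks within 2 kb of a member start site lay upstream of the start site assigned to them in DMSO, against 41.5% of 18474 peaks at all protein-coding genes. The assigned start site was not always the nearest.

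Both targets were called at the promoters of 5 members in DMSO: the PRC1 genes *RNF2*, *PHC3*, *PCGF1*, and *PCGF5* (4 of 23, 17.4%, interval 4.95 to 38.8) and the PRC2 gene *MTF2* (1 of 12, 8.33%, 0.211 to 38.5), where 9.33% of all protein-coding genes had both. The peaks overlapped at 2 of the 5 (40%), *PHC3* and *PCGF5*, with summits 109 and 129 bp apart. At *MTF2*, *PCGF1*, and *RNF2* the summits were 374, 417, and 641 bp apart and the peaks did not touch, as the stretches of *RNF2* printed above show, which are separate sites. Overlapping peaks were found at 1286 of 1871 protein-coding genes with both targets (68.7%). The other three SS18::SSX promoters, those of *SCMH1*, *PCGF3*, and *EZH2*, had no WDR5 promoter peak, a pattern seen at 4.06% of all genes, and 14 members (40%) had WDR5 without SS18::SSX, as did 33.6% of all genes. The remaining 13 members (37.1%) had neither, as did 53% of all genes.

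After MS67 no SS18::SSX peak remained at any member. None of the 35 genes had one at a promoter (0%, interval 0 to 10.0), where 0.723% of all protein-coding genes did, and none had one within 2 kb, where 1.75% did. Of the 8 promoters with SS18::SSX in DMSO, 0 kept a peak that overlapped the DMSO one (0%, interval 0 to 36.9), where 3.73% of all genes with such a peak did. Across all protein-coding genes, 2813 of 2924 promoter peaks were likewise not kept. The MS67 library was deeper, and summit fragments and local background were therefore multiplied by the coverage ratio of 1.36. All 8 member peaks then stayed above the smallest −log10 p in the MS67 list (5.04). The same was true of 2912 of the 2924 promoter peaks of all protein-coding genes, so this does not set the members apart. Multiplying by 1.36 raises the −log10 p of called peaks, so passing was nearly fixed in advance. The count therefore cannot decide how far depth bears on the missing peaks. Peaks near the calling limit run high in the library that called them, and the antibody yield of a library was not tested, so these values describe the lists and not occupancy per cell.

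WDR5 peaks were kept in part. With MS67, 9 of 23 PRC1 genes (39.1%, interval 19.7 to 61.5) and 4 of 12 PRC2 genes (33.3%, 9.92 to 65.1) had a promoter peak, where 27.7% of all protein-coding genes did. Within 2 kb the counts were 13 (56.5%) and 7 (58.3%), where 41.8% of all genes had a peak, and at canonical start sites 7 (30.4%) and 3 (25%), where 18.2% did. Of the genes with a promoter peak in DMSO, 7 of 15 PRC1 genes (46.7%, interval 21.3 to 73.4) and 3 of 4 PRC2 genes (75%, 19.4 to 99.4) had an MS67 peak that overlapped it, where 44% of all such genes did. The kept PRC1 peaks were those of *CBX7*, *PHC1*, *PHC2*, *KDM2B*, *PCGF1*, *YAF2*, and *L3MBTL2*, and the kept PRC2 peaks were those of *RBBP7*, *MTF2*, and *PHF19*. When the DMSO peaks were limited to those with a −log10 q above 5 in both lists, 0 of 9 PRC1 genes and 2 of 3 PRC2 genes counted as kept, where 16% of all did.

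At *KDM2B* the highest promoter summit had 31 fragments with DMSO and 20 with MS67, but at different start sites. The MS67 peak (chr12:121581229-121581631, −log10 q of 7.59) lay 407 bp upstream of the canonical start site, where the DMSO peak had 22 fragments and a −log10 q of 3.54. At *PHF19* the summit went from 19 to 9 fragments, at *RBBP7* from 14 to 10, at *CBX7* from 17 to 7, at *PHC1* from 17 to 10, and at *MTF2* from 10 to 5. Relative to the coverage of each library these were 51.7 and 53.4 for *PHF19*, 38.1 and 59.4 for *RBBP7*, 46.2 and 41.5 for *CBX7*, 46.2 and 59.4 for *PHC1*, and 27.2 and 29.7 for *MTF2*. Over the 12 members with a WDR5 promoter peak in both lists, the highest summit had fewer fragments with MS67 at all 12, and relative to coverage it was lower at 2, *CBX7* and *PHC2* (both from 46.2 to 41.5), and not lower at 10. Over all WDR5 promoter peaks of protein-coding genes, the median summit relative to coverage was 38.1 with DMSO and 53.4 with MS67, so the members followed the whole list. Coverage here is the background of each library, and no spike-in scaling was applied. With spike-in normalization, the study reported lower WDR5 signal after MS67. At *KDM2B*, *RNF2*, *PCGF5*, and *PHF1* the summits compared belong to peaks that do not overlap. A comparison of this kind also leaves out the peaks that were not called with MS67. A shallower library needs a higher summit relative to its coverage for a call, which raises this ratio among called peaks. These ratios therefore do not show that WDR5 binding was unchanged or higher with MS67.

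**Figure D4:**
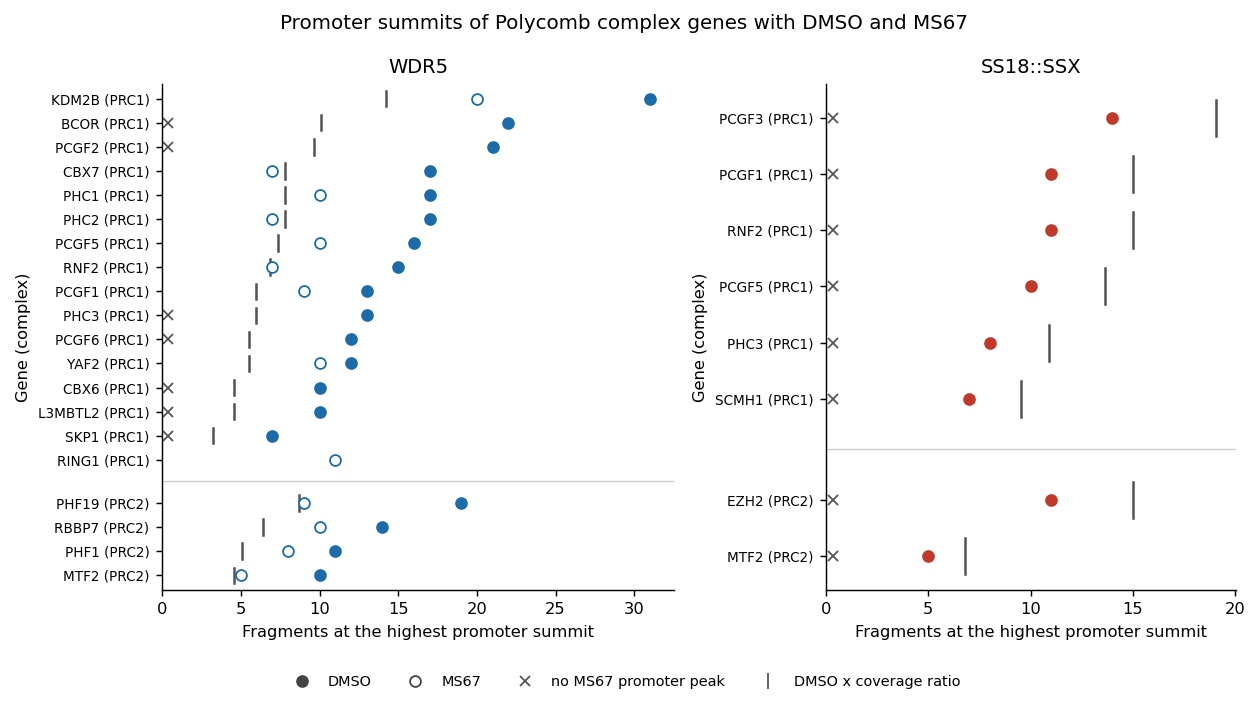
Fragments at the highest promoter summit of each Polycomb complex gene, with DMSO (filled) and with MS67 (open), for WDR5 at left and SS18::SSX at right; a cross marks a gene with no promoter peak with MS67, and *RING1* had none with DMSO. Vertical ticks give the DMSO value times the coverage ratio (0.458 for WDR5 and 1.36 for SS18::SSX). All 8 SS18::SSX genes carry a cross, and of the WDR5 genes 7, all of PRC1, do.

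Promoter peaks of WDR5 in DMSO had no counterpart in the promoter window with MS67 at 7 PRC1 genes (*PCGF2*, *CBX6*, *PHC3*, *BCOR*, *PCGF6*, *SKP1*, and *L3MBTL2*) and at no PRC2 gene. The peak of *L3MBTL2* with MS67 overlapped its DMSO peak but was centred 210 bp downstream of a start site. *RNF2*, *PCGF5*, and *PHF1* had promoter peaks in both lists that did not overlap each other. The MS67 promoter peaks of *PCGF5* and *PHF1* nevertheless overlapped DMSO peaks centred just outside the promoter window, with 10 fragments against 19 at *PCGF5* and 8 against 8 at *PHF1*, whereas that of *RNF2* overlapped none. Counted in that looser way, 8 of 15 PRC1 and 4 of 4 PRC2 genes with WDR5 in DMSO also had it with MS67, where 49.9% of all such genes did. Scaling the DMSO values by the coverage ratio of 0.458 left 5 of the 8 PRC1 peaks that were not kept above the smallest −log10 p of the MS67 list (4.06) and 3 below it, those of *PCGF2*, *CBX6*, and *SKP1*. The *PHF1* peak stayed above it. The scaling does not sort kept from lost peaks, since the kept peaks of *PCGF1* and *YAF2* also fell below the limit, as did 867 of the 3719 kept promoter peaks of all protein-coding genes. Of the 6441 promoter peaks of protein-coding genes that were not kept, 3673 stayed above the limit and 2768 fell below it.

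A WDR5 promoter peak with MS67 and none with DMSO was called at 1 member, *RING1*, the paralog of *RNF2* (chr6:33207908-33208140, 476 bp upstream), with a −log10 q of 2.43 and 11 fragments, where 6.24% of all protein-coding genes showed this pattern. Within 2 kb the same was true of *EZH2* (chr7:148882991-148883396, 315 bp downstream, 2.52 and 9) and *EPOP* (chr17:38673503-38673855, 1278 bp downstream, 2.65 and 9). This wider pattern was found at 3.36% of all genes. All 3 peaks had a −log10 q below the median of that list (3.38), with summits of 9 to 11 fragments against a median of 8.

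SS18::SSX lay near most PRC1 genes when the neighbourhood was taken into account. A peak in the gene or in the 50 kb on each side was found in DMSO for 21 of 23 PRC1 genes (91.3%, interval 72.0 to 98.9) and 5 of 12 PRC2 genes (41.7%, 15.2 to 72.3), where 47.6% of all protein-coding genes had one. Gene length was taken out by counting peaks within 50 kb of the canonical start site, which gave 18 of 23 (78.3%, interval 56.3 to 92.5) and 5 of 12 (41.7%) against 40.4%. These windows were chosen after the data were seen, neighbouring genes were not removed, and *CBX2* and *CBX8* share one neighbourhood. The PRC1 genes without a peak in the gene or its flanks were *CBX7* and *PHC2*, and the PRC2 genes were *EZH1*, *EED*, *SUZ12*, *RBBP4*, *RBBP7*, *AEBP2*, and *PHF19*. With MS67 the counts were 2 of 23 and 0 of 12, against 6.67% of all genes. WDR5 peaks in DMSO were near almost every gene, with 23 of 23 and 11 of 12 in the gene and its flanks (85.4% of all genes) and 22 and 11 within 50 kb of the canonical start site (81% of all genes).

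The neighbourhoods with the most SS18::SSX peaks were those of *CBX2* with *CBX8* and of *BMI1*, described here after their values were seen. At least 7 SS18::SSX peaks in the gene and its flanks were found for 3 PRC1 genes, *CBX2*, *CBX8*, and *BMI1*, and for no PRC2 gene, where 4.8% of all protein-coding genes had as many. The interval from 50 kb before *CBX2* to 50 kb after *CBX8* (chr17:79728148-79851683), 2 genes for chromodomain subunits of canonical PRC1, held 10 SS18::SSX and 13 WDR5 peaks with DMSO. With MS67 it held 1 and 2. The strongest SS18::SSX peak (chr17:79811195-79812117) had a −log10 q of 10.1 and 35 fragments and overlapped a WDR5 peak with 8.41 and 31. No peak of either target lay in the promoter window of *CBX2* or *CBX8*, and around the peaks called with DMSO the local background was itself 6.20 to 22.6 times the genome-wide coverage.

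*BMI1*, which encodes the PCGF4 subunit of canonical PRC1, held no peak itself, but 7 SS18::SSX and 4 WDR5 peaks lay in the surrounding 50 kb with DMSO and none of either with MS67. Of the SS18::SSX peaks, 1 lay before the gene (chr10:22316462-22317096, −log10 q of 5.20, 20 fragments), near the start sites of *COMMD3* and of the readthrough transcript *COMMD3-BMI1*, with a WDR5 peak on the same bases (2.97 and 14). The other six followed within 2.57 to 14.6 kb of its end and included the start site region of *SPAG6*, where the strongest had 5.75 and 20.

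**Figure D5:**
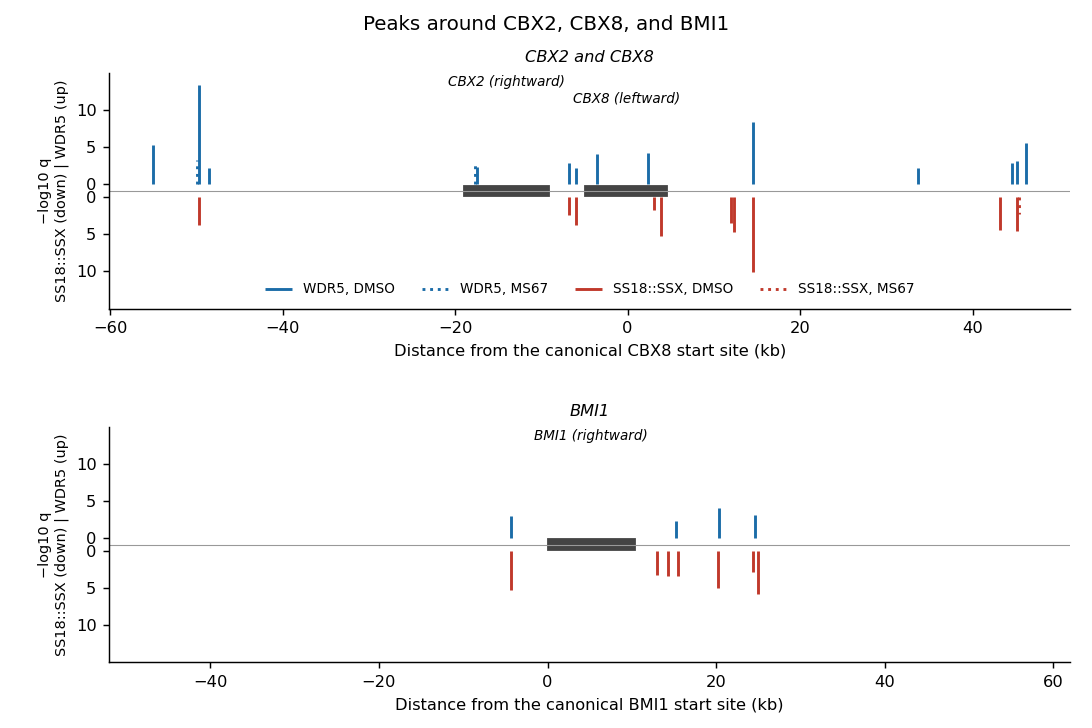
Peaks around *CBX2* and *CBX8* (top) and *BMI1* (bottom), as lines at the peak centre in kb from the canonical start site of *CBX8* or *BMI1*, with −log10 q upward for WDR5 and downward for SS18::SSX and MS67 lists dotted. Dark bars are the genes. The top panel holds 13 WDR5 and 10 SS18::SSX peaks with DMSO, the bottom panel 4 and 7, and none lies over *BMI1*.

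Genes for partners of the complexes gave counts of the same order. Of 28 such genes, 13 had a WDR5 promoter peak with DMSO (46.4%, interval 27.5 to 66.1), near the 42.9% of all protein-coding genes, made up of 9 of 15 partners of PRC1, 1 of 3 partners of PRC2, and 3 of 10 genes of PR-DUB, the complex that removes H2AK119ub. The strongest were at *DCAF7* (−log10 q of 8.91, 19 fragments) and *TFDP1* (7.38 and 13), which encode partners of variant PRC1. SS18::SSX promoter peaks lay at 4 of the 28 (14.3%, 4.03 to 32.7, against 13.4% of all genes): *MAX* (3.40), *AUTS2* (3.02), *MBD6* (2.96), and *FBRS* (2.06). All but *MBD6* also had WDR5. With MS67 none of the 28 had an SS18::SSX promoter peak, and 1 had a peak within 2 kb, *FBRSL1* (chr12:132560829-132561230, 877 bp downstream, −log10 q of 2.81, 12 fragments), where 1.75% of all genes did.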

How the data were processed

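Per the submitters' processing notes, the authors aligned CUT&RUN reads to hg38 and mm10, handled alignments with SAMtools 1.9, Picard, and bedtools 2.28.0, made tracks with deepTools 3.3.0, and called peaks with MACS2 on each library. The study's methods name a later SAMtools release, and the difference could not be settled here. Caller options and any control are not given in the sources used here. For comparing peak sets the study applied a stricter q and fold limit, which is one of the alternatives tried. The deposited lists give each peak a fold ratio of the summit over local background, p-values and q-values as −log10, a display score, and a summit offset. Spike-in scaled tracks were not analysed here.

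From these values, summit fragments and background were recovered with Python 3.11.15, numpy 2.4.6, scipy 1.17.1, and pandas 2.3.3 (100% of summits were whole numbers within 0.001). Peaks were assigned by centre to every GENCODE 44 start site, from 1000 bp upstream to 100 bp downstream, or within 2 kb. A peak was kept when 1 bp overlapped. Sequence was read with pysam 0.24.0. The steps were tested on simulated data.

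With 1 library for each target and treatment, no test between conditions was run. Shares carry 95% Clopper-Pearson intervals for counting error only, and stand beside the share of all protein-coding genes. The members, the partner list, and the alternatives were chosen with earlier results of these data known. Values were given for members with SS18::SSX at a promoter, the 3 strongest WDR5 promoters of each complex, members without WDR5 at a promoter, and those gained with MS67, and for partners with SS18::SSX and the 2 strongest for WDR5. Values of *PCGF2*, *BCOR*, *SKP1*, *YAF2*, *L3MBTL2*, and *PHF1* and the neighbourhoods of *CBX2*, *CBX8*, and *BMI1* were named after they were seen.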

Additional observations from a re-analysis of the deposited data

How the results depend on the processing

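Of 77 alternative values for 10 counts, 49 stayed within 1.5 times the reported count and 28 moved. Using the canonical start site alone gave WDR5 at 9 PRC1 genes, SS18::SSX at 1 PRC2 gene, both at 2 PRC1 and 0 PRC2 genes, and kept WDR5 at 4 PRC1 genes, since fewer start sites were used. Over all protein-coding genes these shares were 31.2%, 8.83%, and 4.81%, and 39.8% of those with WDR5 in DMSO kept it. A −log10 q above 3 with a fold above 3 (SS18::SSX) or 6 (WDR5) left WDR5 at 1 PRC1 gene, SS18::SSX at 1 PRC2 gene, both at 0 and 0, and kept WDR5 at 0 PRC1 genes. A −log10 q above 5 left WDR5 at 9 PRC1 genes, SS18::SSX at 2 and 0, both at 1 and 0, and kept WDR5 at 0 PRC1 genes; in both cases fewer peaks passed. The 2 kb window gave both targets at 7 PRC1 genes and kept WDR5 at 5 PRC2 genes, as did counting any 1 bp of a peak in the promoter (5). Within 2 kb, 19.3% of all genes had both targets. Of all genes with WDR5 in DMSO, 48.3% and 47.4% kept it under these 2 rules. Asking for 50% of the DMSO peak to be covered kept WDR5 at 3 PRC1 genes, and limiting the DMSO list to the size of the MS67 list kept it at 4. The shares kept among all genes were 24.4% and 51.8%. With 50 kb around the gene, chosen after the data were seen, WDR5 lay at 23 and 11 genes and SS18::SSX at 21 and 5, against 85.4% and 47.6% of all genes. With 50 kb around the canonical start site WDR5 lay at 11 PRC2 genes and SS18::SSX at 18 and 5, against 81.0% and 40.4%. The kept SS18::SSX count was 0 under every alternative that left a DMSO peak. None was left for either complex when that list was limited to the size of its MS67 list, or for PRC2 at a −log10 q above 5, so these give no value. No paired analysis was possible because each target and treatment has 1 library. Depth limits the weak calls most: the smallest summits called had 3 to 7 fragments.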

Other observations

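*JARID2* held 11 WDR5 peaks in the interior of the gene with DMSO, away from its start sites, with −log10 q from 3.51 to 8.13, and 2 with MS67. The strongest (chr6:15390082-15390452, 22 fragments) overlapped 1 of 2 SS18::SSX peaks inside the gene (chr6:15390278-15390447, −log10 q of 3.61, 9 fragments). *JARID2* is a long gene of 275974 bp, and 60% of all protein-coding genes, of any length, held a WDR5 peak in the gene with DMSO. That share counts any peak in the gene, start sites included. The share of genes with as many interior peaks, or among genes of like length, was not counted. *AEBP2*, longer still at 316757 bp and without a peak at a start site, held 3 WDR5 peaks in its interior with DMSO, the strongest with a −log10 q of 5.37 and 9 fragments.

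PR-DUB genes, which encode the H2AK119 deubiquitinase and its cofactors, had more WDR5 promoter peaks with MS67 than with DMSO, 7 of 10 (70%, Clopper-Pearson interval 34.8 to 93.3) against 3 of 10 (30%, 6.67 to 65.2), while the count over all protein-coding genes was 27.7% against 42.9%. The genes called only with MS67 were *BAP1*, *ASXL1*, *MBD5*, *MBD6*, and *HCFC1*, with −log10 q from 1.82 to 4.57, and they were named after their values were seen. Over all protein-coding genes, 6.24% showed this pattern. The *BAP1* peak had a WDR5 peak of the DMSO list within 1 kb, and the peaks of the other genes had none. Within 2 kb the PR-DUB counts were 9 of 10 with MS67 and 6 of 10 with DMSO, against 41.8% and 62.7% of all genes. At canonical start sites they were 5 and 3, against 18.2% and 31.2%, so the gap was smaller under both definitions. *FOXK2* had the strongest promoter peak of the 28 partner genes with MS67 (chr17:82593309-82593684, −log10 q of 12.4, 16 fragments), and it overlapped a DMSO peak centred outside the promoter window (chr17:82593366-82594061, −log10 q of 9.91, 16 fragments). The *WDR5* gene itself had a promoter peak with MS67 (−log10 q of 2.65, 7 fragments) and none with DMSO.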
